A study of Homo sapiens with 12 samples.

Results

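The genes of the cytosolic ribosomal proteins were followed in HL60, a promyelocytic cell line from a human acute myeloid leukaemia, as TFEB S211A, a form of the lysosomal transcription factor TFEB, was induced. Members were the protein-coding genes whose symbols name a protein of the small or large ribosomal subunit, with RPSA, RPLP0, RPLP1 and RPLP2, and with a mean deposited value of at least 10 over the 12 libraries. By this rule 82 of 57820 genes were members: 30 of the small subunit, 43 of the large subunit, 3 of the stalk and 6 paralogs whose symbols carry an added L. A further 3 genes had such symbols and a lower mean, among them RPL10L (4.39), and were left out. Of the members, 72 had a mean of at least 1000, and all 82 passed the filter for testing.

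The study compared 4 groups of 3 libraries. TFEB-Dox cells carried the pRRL-TFEBS211A-puro vector, which expresses TFEB S211A when doxycycline is present, and were given doxycycline, and TFEB-Veh cells carried this vector and were given vehicle. EV-Dox and EV-Veh cells carried the empty vector pRRL-EV-puro and were given doxycycline or vehicle. The culture medium was RPMI-1640 plus 10% fetal bovine serum, and doxycycline was used at 1 µg/ml for 48 h, a treatment that the protocol field lists for vehicle samples as well. The triplicates were independent experiments by the series description, and the labels do not say whether each transduced line was a pool or a clone.

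The cytosolic ribosome is built from ribosomal RNAs and a protein set that is needed in near-equal amounts, so the genes for these proteins are among the most transcribed of any growing cell. Their mRNAs mostly start with a cytosine and a run of pyrimidines, the terminal oligopyrimidine or TOP motif, through which the kinase complex mTORC1 and the RNA-binding protein LARP1 govern their translation. TFEB is itself a target of mTORC1, and the exchange of serine for alanine in the S211A form removes a phosphorylation site that holds the protein in the cytoplasm. Proteins of the large subunit such as RPL5 and RPL11 also bind MDM2 when ribosome assembly is disturbed, and loss of 1 copy of RPS19 or RPS14 is known from inherited and acquired anaemias.

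The TOP start could be read for most of the family in RefSeq (GRCh38.p14), whose promoter table held 66 of the 82 members by symbol. A C at an annotated transcript start followed by at least 4 further pyrimidines, read on the strand of the gene, was present in 47 of these 66 members (71.2%) and in 1404 of 27305 genes of the whole table (5.14%). The run was 5 to 19 bases long, with a median of 8. Among the paralogs it was found in 1 of 4 (RPL22L1), against 46 of 62 other members (74.2%). The windows below cover 10 bases before and 20 bases from the start, in capitals the pyrimidine run, and belong to the genes on which the later results turn. RPS27 lies at chr1:153990752-153990781 (plus strand), RPL24 at chr3:101686699-101686728 (minus), RPL41 at chr12:56116623-56116652 (plus), RPS25 at chr11:119018324-119018353 (minus), RPS10 at chr6:34426050-34426079 (minus) and RPL26 at chr17:8383174-8383203 (minus).
RPS27: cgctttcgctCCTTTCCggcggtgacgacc
RPL24: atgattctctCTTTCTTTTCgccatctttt
RPL41: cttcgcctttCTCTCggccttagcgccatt
RPS25: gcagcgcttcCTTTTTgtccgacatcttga
RPS10: catgctccttCCTTTCCagccccggtaccg
RPL26: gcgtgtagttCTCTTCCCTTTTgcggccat
The paralogs RPS27L, at chr15:63157458-63157487 (minus strand), and RPL26L1, at chr5:172958719-172958748 (plus), are shown for contrast, since no such run began at their starts.
RPS27L: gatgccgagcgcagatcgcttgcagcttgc
RPL26L1: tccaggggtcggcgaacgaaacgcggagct
A second annotated start of RPL26L1, and both annotated starts of RPL19, also lacked it by this rule. At the second start of RPL19 a pyrimidine run spanned the annotated base, which was a T, so its absence there rests on the exact base annotated. The core of the sites that TFEB binds, CACGTG (a palindrome, so both strands read alike), lay between 250 bases before and 50 bases after the start in 5 of the 66 members (7.58%: RPL13A, RPL19, RPL7L1, RPS19 and RPS28) and in 8.77% of all genes. The longer palindrome TCACGTGA, which contains it, was in 0 of 66 members and 1.18% of genes.

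The libraries held between 4474007 and 22488047 reads, recovered from the deposited values. TFEB itself had 14470 to 22629 deposited units in the TFEB-Dox libraries and 79.8 to 196 in the other 9, as labelled, with transgene and endogenous reads inseparable. The promyelocytic marker MPO lay between 3796 and 187310 units in all libraries, SPN between 413 and 6156, and CD33 between 229 and 1432. ELANE lay between 146 and 7405 units, PRTN3 between 133 and 10324, and AZU1 between 116 and 2864. The 10 markers of B, T, erythroid, epithelial and fibroblast cells lay at or below 132, a range that the lowest AZU1 value reached. Mitochondrial genes took 13.3% to 17.9% of reads in TFEB-Dox libraries and 21.0% to 33.1% in the others, the highest in EV-Dox replicate 3, which was also the shallowest library. Levels are therefore given below as reads per 1000000 reads of nuclear genes (RPM), and as they are not divided by length, genes are compared with themselves only.

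In TFEB-Dox cells the 82 genes together took a smaller part of the transcriptome than in TFEB-Veh or EV-Veh cells. Their share of nuclear reads was 8.66%, 7.96% and 8.41% in TFEB-Dox replicates 1 to 3, 11.0%, 12.8% and 12.7% in TFEB-Veh, 11.7%, 9.76% and 8.10% in EV-Dox, and 12.17%, 12.03% and 10.53% in EV-Veh. All 3 TFEB-Dox libraries lay below all 6 vehicle libraries, and they overlapped with EV-Dox through EV-Dox replicate 3. The share averaged 8.34 ± 0.356% in TFEB-Dox and 12.2 ± 1.00% in TFEB-Veh (SD, n = 3 each), a difference of -3.83 percentage points with an exact two-sided permutation p of 0.1, the smallest that 3 against 3 libraries can give (0.25 after Benjamini-Hochberg adjustment over 5 comparisons). A share in bulk RNA cannot tell fewer cells of a type from less RNA per cell. Against EV-Veh (11.6 ± 0.907%) the difference was -3.23 points (exact permutation p = 0.1, adjusted 0.25), and against EV-Dox (9.85 ± 1.80%) it was -1.51 points (exact permutation p = 0.3, adjusted 0.375). The size of these differences depended on the reads that served as the whole. As shares of all reads, mitochondrial ones included, they were -1.93 points against TFEB-Veh, -1.81 against EV-Veh and 0.102 against EV-Dox. As shares of protein-coding reads they were -4.24 points against TFEB-Veh, -3.41 against EV-Veh and -1.98 against EV-Dox, and there TFEB-Dox and EV-Dox did not overlap either (exact permutation p = 0.1, adjusted 0.167). EV-Dox differed from EV-Veh by -1.72 points with overlapping libraries (exact permutation p = 0.2, adjusted 0.333), or by -0.846 without EV-Dox replicate 3, and was lower in each of the 3 same-numbered pairs. TFEB-Veh differed from EV-Veh by 0.594 points (exact permutation p = 0.5, adjusted 0.5).

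**Figure D1:**
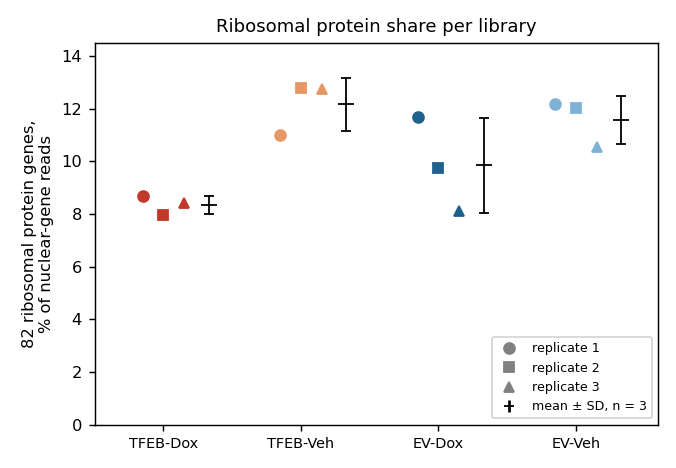
Share of nuclear-gene reads taken by the 82 ribosomal protein genes in each library (points, percent on the vertical axis) by group, with the mean and SD beside them. The 3 TFEB-Dox libraries lie between 7.96% and 8.66%, below all TFEB-Veh and EV-Veh libraries, while EV-Dox spreads from 8.10% to 11.7%.

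The lower share was seen in each class of the family. Small-subunit genes summed to 31042 ± 1275 RPM in TFEB-Dox and 46645 ± 4900 RPM in TFEB-Veh, and large-subunit genes to 49549 ± 2425 RPM in TFEB-Dox and 71008 ± 5516 RPM in TFEB-Veh (SD, n = 3 each). The 3 stalk genes, whose products recruit elongation factors to the ribosome, summed to 2679 ± 162 RPM in TFEB-Dox and 3840 ± 572 RPM in TFEB-Veh. Small-subunit genes made up 37.2 ± 0.828% of the family's reads in TFEB-Dox and 38.3 ± 1.53% in TFEB-Veh, with overlapping ranges. Of the 82 genes, 55 had all TFEB-Dox libraries below all TFEB-Veh libraries in RPM, 0 had them above, and 27 overlapped. Among the 7215 other nuclear genes whose mean deposited value reached 200, termed expressed genes from here on, 49.3% lay below and 29.7% above in the same way.

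A set of 9 members was chosen for description whatever their result, namely RPS6, RPL5, RPL11, RPS19, RPS14, RPSA and the 3 stalk genes. Of these 7 had all TFEB-Dox libraries below all TFEB-Veh libraries in RPM, and 0 were called lower by limma on the deposited scale or scaled on expressed genes. RPS6, the classic substrate of the S6 kinases, had 1626 ± 200 RPM in TFEB-Dox and 2216 ± 167 RPM in TFEB-Veh (SD, n = 3 each). RPL5 had 2953 ± 304 RPM in TFEB-Dox and 4190 ± 793 RPM in TFEB-Veh, and RPL11 had 2559 ± 220 RPM in TFEB-Dox and 3806 ± 548 RPM in TFEB-Veh. RPS19 had 487 ± 41.6 RPM in TFEB-Dox and 809 ± 61.0 RPM in TFEB-Veh, and RPS14 had 248 ± 64.5 RPM in TFEB-Dox and 484 ± 97.0 RPM in TFEB-Veh. The stalk genes RPLP0 and RPLP2 were also lower without overlap, with 698 ± 86.0 and 745 ± 70.8 RPM in TFEB-Dox and 1244 ± 153 and 1136 ± 116 RPM in TFEB-Veh, while RPLP1 overlapped, with 1236 ± 39.5 RPM in TFEB-Dox and 1460 ± 304 RPM in TFEB-Veh. Among the members with the highest means, RPL28 (3544 ± 351 RPM in TFEB-Dox and 4219 ± 606 RPM in TFEB-Veh) and RPL37A (2687 ± 984 RPM in TFEB-Dox and 4955 ± 1904 RPM in TFEB-Veh) overlapped. RPSA, which is also known as the laminin receptor, did overlap, with 373 ± 65.9 RPM in TFEB-Dox and 552 ± 161 RPM in TFEB-Veh.

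How many single genes passed a test depended on how the libraries were scaled. The level of expressed genes as a whole differed between libraries on the deposited scale. There, expressed genes outside the family had a median log2 change of 0.74 in TFEB-Dox against TFEB-Veh, and the family had a median of 0.49, or 0.17 without TFEB-Veh replicate 1. With each library scaled on its expressed genes the medians were -0.01 and -0.26. The distance between family and other expressed genes was thus -0.25 on either scale. It was 0.15 in TFEB-Dox against EV-Dox, -0.17 in TFEB-Dox against EV-Veh, -0.26 in EV-Dox against EV-Veh on the deposited scale (-0.25 scaled on expressed genes) and 0.09 in TFEB-Veh against EV-Veh. The distance under doxycycline was thus similar in the TFEB and the empty-vector line, but its spread was not. For the change in the TFEB line minus that in the empty-vector line the distance was 0.08 on either scale. Within libraries, the median log2 level of the family without paralogs exceeded that of other expressed genes by 4.06 to 4.15 in TFEB-Dox. It did so by 4.35 to 4.59 in TFEB-Veh, without overlap. In EV-Dox this excess was 3.66 to 4.36, lowest in replicate 3, and overlapped with EV-Veh (4.23 to 4.53). The comparisons of TFEB-Dox share its libraries and those against EV-Veh share that group, so these distances are not independent of each other.

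**Figure D2:**
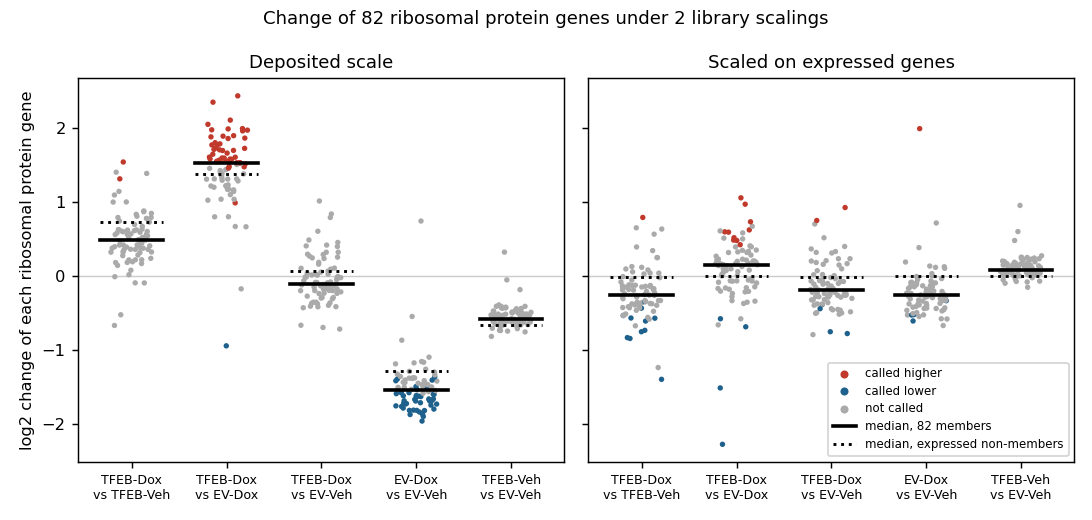
Log2 change of each of the 82 genes (points) in 5 comparisons, on the deposited scale (left) and with libraries scaled on expressed genes (right); solid bars mark the family median and dotted bars the median of expressed genes outside it. In TFEB-Dox against TFEB-Veh the family median is 0.49 on the left and -0.26 on the right, below the dotted bar both times.

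In TFEB-Dox against TFEB-Veh the deposited scale gave 2 members higher and 0 lower (limma, adjusted p under 0.05 over all 23128 genes), where 17.4% of all tested genes were called higher and 4.66% lower, and 31.5% and 3.51% of expressed genes. Both were paralogs: RPS27L by 1.54 (SE 0.43, limma adjusted p = 0.00666), and RPL26L1 by 1.32 (limma adjusted p = 0.0131, SE 0.40). No member was called lower by edgeR or DESeq2 either, and 0 at an unadjusted limma p under 0.05. Without TFEB-Dox replicate 2 or without TFEB-Veh replicate 1 neither gene was called, and the count was 4 without EV-Dox replicate 3. Scaled on expressed genes, 1 member was higher and 11 were lower, beside 14.4% and 20.7% of all tested genes and 34.4% and 33.2% of expressed genes. Both shares of members, like those on the deposited scale, were smaller than those of expressed genes. The 11 genes were RPS10 (-1.39), RPL41 (-0.84), RPL36A (-0.83), RPL17 (-0.75), RPS25 (-0.73), RPS21 (-0.60), RPL13A (-0.57), RPL29 (-0.56), RPL36 (-0.53), RPL35A (-0.43) and RPL7L1 (-0.34). Their number was 3 without TFEB-Dox replicate 2, 4 without TFEB-Dox replicate 3, 4 without TFEB-Veh replicate 2, 7 without TFEB-Veh replicate 3 and 21 without EV-Dox replicate 3.

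RPS27L, a paralog of RPS27 that is known as a p53 target, was called higher under each of 4 scalings (deposited, TMM, equal totals, expressed genes). It had 35.7, 43.0 and 52.9 RPM in TFEB-Dox, 28.4, 27.0 and 38.2 RPM in TFEB-Veh, 25.0, 30.1 and 46.4 RPM in EV-Dox, and 30.7, 26.1 and 30.9 RPM in EV-Veh. TFEB-Dox was the highest group by its mean, but the ranges overlapped with TFEB-Veh replicate 3 and EV-Dox replicate 3. Scaled on expressed genes the change against TFEB-Veh was 0.79 (SE 0.23, limma adjusted p = 0.0115), and it ended without TFEB-Dox replicate 3 or TFEB-Veh replicate 2, when 0 members were called higher. Its partner RPS27, which carries the TOP run shown above, had 1529, 1422 and 1307 RPM in TFEB-Dox and 1454, 1363 and 1319 RPM in TFEB-Veh.

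RPL26L1, which encodes a near-copy of the large-subunit protein RPL26, stood higher relative to its parent in every TFEB-Dox library than in any other. The ratio of RPL26L1 to RPL26 reads was 1.28, 1.46 and 1.41 in TFEB-Dox, 0.654, 0.585 and 0.801 in TFEB-Veh, 0.558, 0.655 and 0.974 in EV-Dox, and 0.541, 0.721 and 0.872 in EV-Veh. All TFEB-Dox libraries lay above all 9 others, with 1.38 ± 0.0936 in TFEB-Dox and 0.680 ± 0.110 in TFEB-Veh (SD, n = 3 each). This ratio needs no library scaling, was chosen after its values were seen and was not tested. RPL26 was lower without overlap, with 16.1, 14.7 and 16.2 RPM in TFEB-Dox against 22.3, 26.7 and 31.7 RPM in TFEB-Veh. RPL26L1 itself overlapped, with 20.6, 21.5 and 22.7 RPM in TFEB-Dox against 14.6, 15.6 and 25.4 RPM in TFEB-Veh. Reads that fit both copies, or a pseudogene, could be dropped or given to either by the authors' counting, so both levels and their ratio are uncertain. RPL26 stood far below the family median, by a mean log2 difference of -5.75 in TFEB-Dox and -5.50 in TFEB-Veh. Whether reads of RPL26 were lost in the counting was not tested.

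The ratios of 2 other paralogs to their parents overlapped between the groups. The ratio of RPL22L1 to RPL22 was 0.0227 ± 0.00254 in TFEB-Dox and 0.0279 ± 0.00684 in TFEB-Veh, and that of RPL7L1, a protein of ribosome assembly rather than of the ribosome, to RPL7 was 0.367 ± 0.0470 in TFEB-Dox and 0.402 ± 0.0350 in TFEB-Veh (SD, n = 3 each). RPL39L, known for its expression in testis, had 2.26 ± 0.767 RPM in TFEB-Dox and 3.61 ± 1.23 RPM in TFEB-Veh. RPL3L, known from heart and skeletal muscle, had 3.28, 1.20 and 0.699 RPM in TFEB-Dox, 8.07, 2.54 and 3.79 RPM in TFEB-Veh, 5.91, 7.86 and 16.0 RPM in EV-Dox, and 2.27, 1.18 and 4.05 RPM in EV-Veh.

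Departures of single genes from the family were tested with each library centred on the median of its 76 ribosomal protein genes without the paralogs, which is meant to remove a change that the family shares. In TFEB-Dox against TFEB-Veh 4 genes departed upwards and 2 downwards (limma adjusted p under 0.05), beside 14.3% and 9.65% of all tested genes and 35.7% and 20.9% of expressed genes set against the same family median. The upward ones were RPS27L (1.00, SE 0.32, limma adjusted p = 0.0214), RPL24 (0.85, SE 0.28, limma adjusted p = 0.0308), RPS27 (0.56, SE 0.18, limma adjusted p = 0.0219) and RPL19 (0.47, limma adjusted p = 0.0201, SE 0.14). RPL24 and RPL19 encode large-subunit proteins that take part in the bridges between subunits, and RPS27 a zinc-finger protein of the small subunit. The downward ones were RPL41 (-0.63, SE 0.20, limma adjusted p = 0.0208), which encodes the smallest ribosomal protein, and RPS25 (-0.52, SE 0.18, limma adjusted p = 0.0443), whose product serves initiation at viral internal ribosome entry sites. The median of levels rests on the few genes in the middle of the range, so the calls were repeated with each library centred on the median deviation of these genes from their own means, an alternative added after seeing the data. The upward departures then numbered 6, with the 4 named genes among them, and the downward ones 0, with RPL41 at -0.57 (limma adjusted p = 0.0581) and RPS25 at -0.46 (limma adjusted p = 0.0822). Both stayed called with centring on the mean of the genes with a mean value of at least 1000. The calls also rested on single libraries: the counts were 0 and 0 without TFEB-Dox replicate 2, 2 and 0 without TFEB-Dox replicate 3 or TFEB-Veh replicate 1, 0 and 1 without TFEB-Veh replicate 2, 5 and 1 without TFEB-Veh replicate 3, 4 and 1 without EV-Dox replicate 2, and 5 and 5 without EV-Dox replicate 3.

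**Figure D3:**
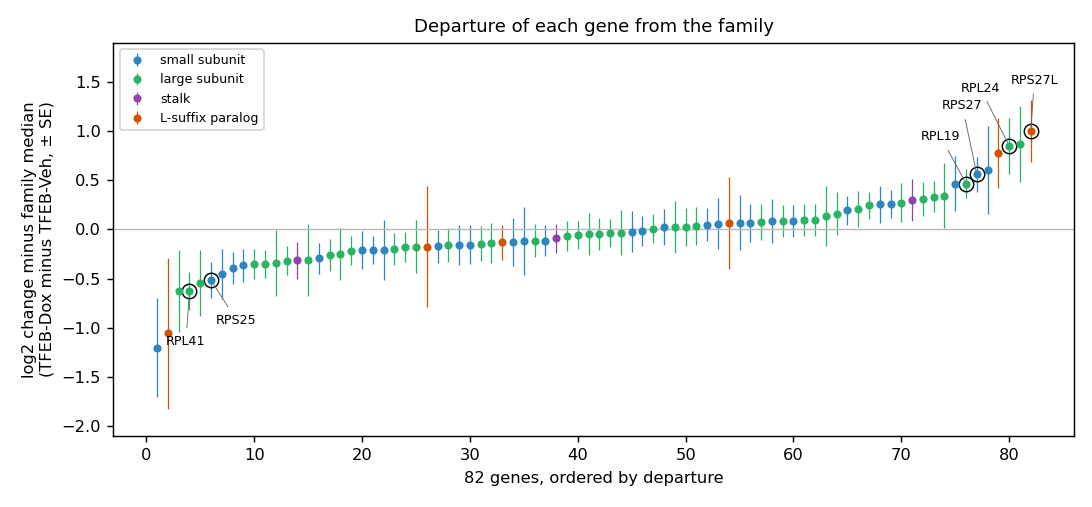
Log2 change of each of the 82 genes in TFEB-Dox minus TFEB-Veh after centring on the family median, ordered from lowest to highest, with SE as bars and colours for the class of the protein. The 6 called genes are ringed and named; they run from -0.63 for RPL41 to 1.00 for RPS27L (the 2 lower ones were not called with the other centring), and genes with larger negative values and wide bars were not called.

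The departures can be read beside the levels in RPM. RPL19 had 1617, 1548 and 1615 RPM in TFEB-Dox and 1595, 1720 and 1646 RPM in TFEB-Veh, ranges that overlap. RPL24 had 368, 627 and 718 RPM in TFEB-Dox and 335, 377 and 657 RPM in TFEB-Veh, again overlapping and with a wide spread inside both groups. RPL41 had 476, 330 and 323 RPM in TFEB-Dox, 892, 877 and 705 RPM in TFEB-Veh, 840, 969 and 412 RPM in EV-Dox, and 826, 1007 and 613 RPM in EV-Veh. Its TFEB-Dox libraries lay below all TFEB-Veh and EV-Veh libraries and overlapped with EV-Dox replicate 3. RPS25 had 1170, 798 and 880 RPM in TFEB-Dox, 1854, 2197 and 1739 RPM in TFEB-Veh, 2179, 1718 and 1446 RPM in EV-Dox, and 2049, 1919 and 1134 RPM in EV-Veh. TFEB-Dox was below TFEB-Veh and EV-Dox in every library, and overlapped with EV-Veh replicate 3.

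**Figure D4:**
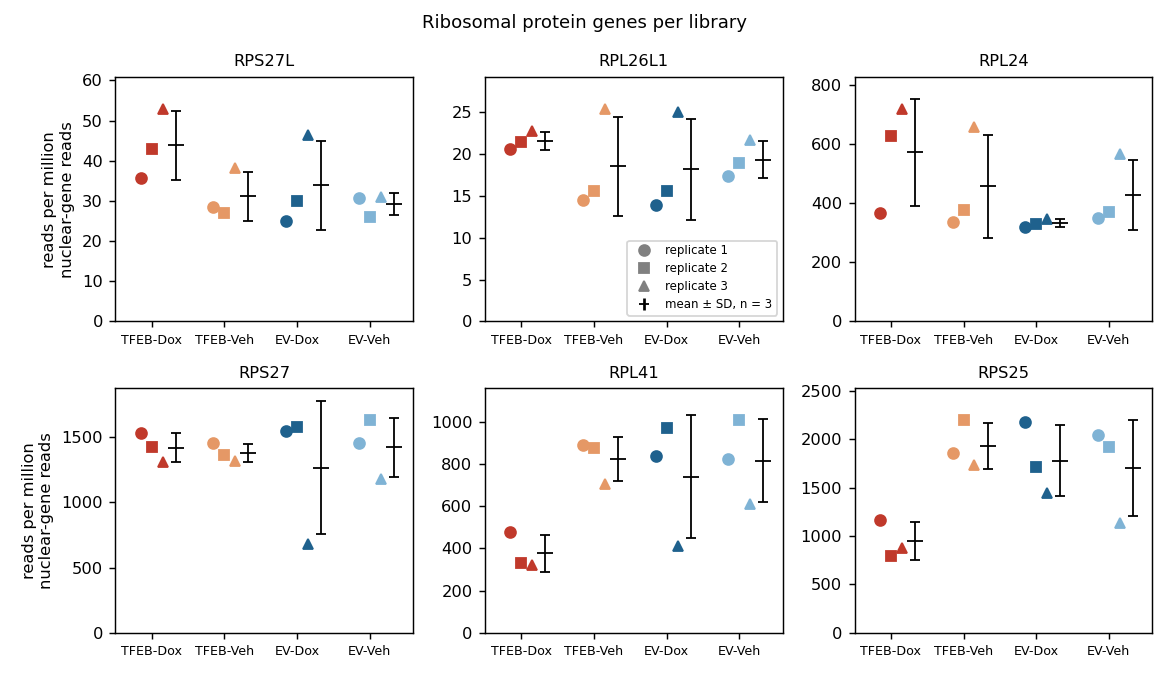
Reads per 1000000 nuclear-gene reads of 6 genes in each library by group, with mean and SD beside the points; all axes start at 0. RPL41 and RPS25 are lower in all 3 TFEB-Dox than in all 3 TFEB-Veh libraries, while RPS27L, RPL26L1, RPL24 and RPS27 overlap.

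The weakly counted members RPS10, RPL36A and RPL17 were lower in every TFEB-Dox library than in the other 9. RPS10, a protein of the head of the small subunit, had 1.92, 2.16 and 2.36 RPM in TFEB-Dox, 7.89, 7.72 and 5.98 RPM in TFEB-Veh, 8.35, 7.35 and 8.02 RPM in EV-Dox, and 5.62, 5.85 and 3.44 RPM in EV-Veh. RPL36A had 4.65 ± 0.555 RPM in TFEB-Dox and 10.4 ± 1.98 RPM in TFEB-Veh, and RPL17 had 7.68 ± 0.734 RPM in TFEB-Dox and 16.1 ± 2.35 RPM in TFEB-Veh (SD, n = 3 each). Each of the 3 overlaps a readthrough gene of the annotation (RPS10-NUDT3, RPL36A-HNRNPH2 and RPL17-C18orf32) that was listed at 0 in every library, so the counting of the shared exons is uncertain. Among well-counted genes the same non-overlap held for RPS21 (477 ± 49.1 RPM in TFEB-Dox and 896 ± 84.2 RPM in TFEB-Veh) and RPL29 (338 ± 4.84 RPM in TFEB-Dox and 619 ± 40.6 RPM in TFEB-Veh). In all, 20 members were lower in TFEB-Dox than in all 9 other libraries and 0 were higher, beside 40.5% and 23.2% of expressed genes.

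Within the family most of the variation between libraries followed neither vector nor drug. Over the 71 members used, the first principal component of the centred values took 67.0% of the variance and set TFEB-Dox replicates 2 and 3, TFEB-Veh replicate 3, EV-Dox replicate 3 and EV-Veh replicate 3 apart from the other 7 libraries. RPS20, RPL38, RPL22, RPL24, RPS26, RPL6 and RPS12 were relatively high in these 5 libraries, and RPL30, RPL37A, RPS14, RPL23A, RPL9 and RPL41 relatively low. The ratio of RPS20 to RPL30 reads was 0.0963, 0.512 and 0.550 in TFEB-Dox, 0.0886, 0.0909 and 0.493 in TFEB-Veh, 0.0959, 0.0956 and 0.731 in EV-Dox, and 0.0939, 0.0923 and 0.500 in EV-Veh. No library lay between 0.0963 and 0.493. The same split appeared in the sign of the third principal component of the 7215 other expressed genes, which took 3.73% of their variance. The labels give no batch that matches it, and its cause was not tested.

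**Figure D5:**
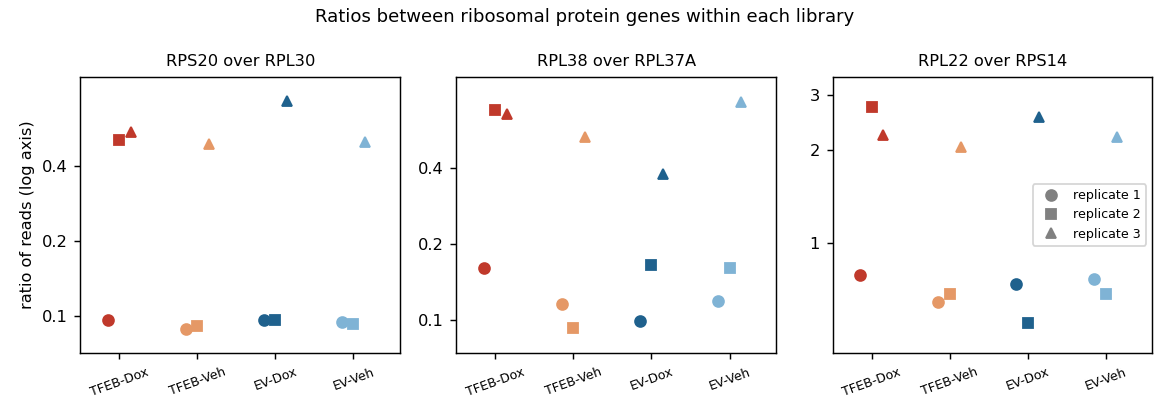
Ratio of reads between 3 pairs of ribosomal protein genes in each library by group, on log axes. In each panel TFEB-Dox replicates 2 and 3 and the third replicate of the other groups lie above the remaining 7 libraries; RPS20 over RPL30 is 0.493 to 0.731 in these 5 libraries and 0.0886 to 0.0963 in the others.

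Since 2 of 3 TFEB-Dox but 1 of 3 TFEB-Veh libraries were among the 5, the members were also read within each set. RPS27L had 35.7 RPM in TFEB-Dox against 28.4 and 27.0 RPM in TFEB-Veh among the 7 libraries, and 43.0 and 52.9 RPM in TFEB-Dox against 38.2 RPM in TFEB-Veh among the 5. RPL41 had 476 RPM in TFEB-Dox against 892 and 877 RPM in TFEB-Veh among the 7, and 330 and 323 RPM in TFEB-Dox against 705 RPM in TFEB-Veh among the 5. The differences of these 2 genes thus had the same direction in both sets. RPL24 had 368 RPM in TFEB-Dox against 335 and 377 RPM in TFEB-Veh among the 7, and 627 and 718 RPM in TFEB-Dox against 657 RPM in TFEB-Veh among the 5, with no such separation. With the set as a term of the fit, taken from the component of the other expressed genes, 6 members departed upwards and 8 downwards in TFEB-Dox against TFEB-Veh. The share of all genes called in that fit was not counted, so the 6 and 8 cannot be read as particular to the members. The term was chosen after the split had been seen in the members, so these counts are no independent support for the calls.

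Against EV-Dox, which differs from TFEB-Dox in the vector but not in the drug, TFEB-Dox had 46 members higher and 1 lower on the deposited scale (limma), beside 27.2% and 5.37% of all tested genes and 55.8% and 0.686% of expressed genes. The share of members called higher was close to that of expressed genes. The count of higher members was 5 without TFEB-Dox replicate 2, 12 without EV-Dox replicate 3, 20 without TFEB-Dox replicate 3, 25 without EV-Dox replicate 2, 28 without TFEB-Dox replicate 1 and 74 without EV-Dox replicate 1. Scaled on expressed genes, 10 were higher and 4 lower, beside 14.2% and 57.6% of all tested genes and 36.4% and 35.4% of expressed genes. Genes called in 1 direction under each of the 4 scalings were RPL13, RPL24, RPL26L1, RPL38, RPS16 and RPS27L (higher) and RPL3L (lower). RPL24 differed by 2.44 on the deposited scale (limma adjusted p = 0.00102, SE 0.58) and by 1.06 scaled on expressed genes (SE 0.26, limma adjusted p = 0.00341). RPL38, of which a mouse mutant has skeletal defects, differed by 2.35 (limma adjusted p = 0.00245, SE 0.61) on the deposited scale and by 0.97 (SE 0.38, limma adjusted p = 0.0331) scaled on expressed genes. Both genes are among those that were high in the 5 libraries, which hold 2 of 3 TFEB-Dox but 1 of 3 EV-Dox libraries. RPL38 had 617 RPM in TFEB-Dox against 707 and 516 RPM in EV-Dox among the 7, and 1415 and 1401 RPM in TFEB-Dox against 886 RPM in EV-Dox among the 5. RPL24 had 368 RPM in TFEB-Dox against 320.0 and 329 RPM in EV-Dox among the 7, and 627 and 718 RPM in TFEB-Dox against 347 RPM in EV-Dox among the 5. RPL24 was thus higher in TFEB-Dox in both sets, and RPL38 among the 5, while among the 7 its TFEB-Dox value lay between those of EV-Dox. The higher count scaled on expressed genes was 4 without TFEB-Dox replicate 2 or 3 and 16 without EV-Dox replicate 1.

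Against EV-Veh, TFEB-Dox had 0 members higher and 0 lower on the deposited scale (limma), beside 12.2% and 8.51% of all tested genes and 17.6% and 9.99% of expressed genes. At an unadjusted p under 0.05 there was 1 higher, RPS27L (1.02, SE 0.43, limma adjusted p = 0.0938). edgeR on the recovered reads called 3 higher and DESeq2 called 2. Scaled on expressed genes, 2 were higher and 4 lower, beside 15.9% and 16.2% of all tested genes and 34.6% and 33.3% of expressed genes. RPS27L (0.93) and RPL24 (0.75) were higher, and RPL36A (-0.77), RPL41 (-0.75), RPS21 (-0.44) and RPL7L1 (-0.38) lower. The higher count was 1 without TFEB-Dox replicate 2 or 3 or EV-Veh replicate 1 or 2, and the lower count ranged from 1 without TFEB-Dox replicate 2 or EV-Veh replicate 1 to 9 without EV-Dox replicate 3.

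Doxycycline in the empty-vector line, in EV-Dox against EV-Veh, gave 0 members higher and 45 lower on the deposited scale (limma), beside 3.39% and 23.3% of all tested genes and 0.37% and 51.2% of expressed genes. These 45 are 1 of several widely differing counts. It was 2 without EV-Dox replicate 3, 1 without EV-Veh replicate 2, 8 without EV-Veh replicate 1 and 17 without EV-Dox replicate 2, but 72 without EV-Veh replicate 3 and 81 without EV-Dox replicate 1. It was 27 without TFEB-Dox replicate 1 or 2 and 23 without TFEB-Dox replicate 3, libraries that enter only the estimate of spread. Among members 1 had an unadjusted p under 0.05 in the higher direction (RPL3L), edgeR called 1 higher and 17 lower, and DESeq2 0 and 70. The largest falls were those of RPL9 (-1.95, SE 0.63, limma adjusted p = 0.024), RPL3 (-1.89, SE 0.61, limma adjusted p = 0.0244) and RPL10 (-1.87, limma adjusted p = 0.0318, SE 0.64), all of the large subunit, and RPL3 lies beside its catalytic centre. Without EV-Dox replicate 3 they were -1.06, -1.09 and -0.91, and none of the 3 was called without that library, EV-Veh replicate 1 or EV-Veh replicate 2. RPL3 had 1236, 1231 and 528 RPM in EV-Dox and 1482, 1474 and 1366 RPM in EV-Veh, so EV-Dox replicate 3 was far below the rest.

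Scaled on expressed genes, 1 member was higher and 4 lower in EV-Dox against EV-Veh, beside 44.1% and 5.75% of all tested genes and 20.9% and 17.5% of expressed genes. Deviations of same-numbered libraries of these groups correlated positively, though EV-Dox replicate 1 correlated more with EV-Veh replicate 2. With the replicate number as a block the counts were 1 and 15, and 1 and 65 on the deposited scale. The shares of all genes called with the block were not counted. RPL3L was higher (1.99, SE 0.64, limma adjusted p = 0.0252), with its highest value in EV-Dox replicate 3, and the call was absent without that library or EV-Veh replicate 1 or 2. RPL3 (-0.60), RPL7L1 (-0.52), RPLP2 (-0.52) and RPS27A (-0.33) were lower under each of the 4 scalings. Their number was 1 without EV-Dox replicate 3, EV-Veh replicate 1, EV-Veh replicate 2 or TFEB-Dox replicate 2, 2 without EV-Dox replicate 2, TFEB-Dox replicate 3 or TFEB-Veh replicate 2, and 28 without EV-Dox replicate 1. RPL7L1 had 101, 104 and 92.2 RPM in EV-Dox and 135, 150 and 151 RPM in EV-Veh, without overlap. RPS27A, which encodes a ubiquitin fused to a small-subunit protein, had 402 ± 35.8 RPM in EV-Dox and 514 ± 31.4 RPM in EV-Veh (SD, n = 3 each).

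Without doxycycline no member was called between the lines. In TFEB-Veh against EV-Veh 0 members were called higher and 0 lower by limma on either scale, as were 0.0% of all tested genes. At an unadjusted limma p under 0.05 there were also 0, and edgeR and DESeq2 called 0. The family median was -0.57 on the deposited scale, beside -0.66 for other expressed genes, and 0.09 scaled on expressed genes. The first was -0.23 without TFEB-Veh replicate 1 and -0.21 without EV-Veh replicate 2.

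The response to doxycycline was set against the vector by the interaction of both, the change in the TFEB line minus that in the empty-vector line. The family median was 2.12 on the deposited scale, beside 2.04 for other expressed genes, and 0.08 scaled on expressed genes. On the deposited scale 49 members were called higher and 1 lower (limma), beside 29.2% and 6.15% of all tested genes and 62.6% and 0.0686% of expressed genes, and scaled on expressed genes 1 was higher and 3 lower, beside 11.0% and 57.8% of all tested genes and 31.1% and 29.9% of expressed genes. Called under each of the 4 scalings were RPL24 (2.98, SE 0.83, limma adjusted p = 0.00494, and 0.94 scaled on expressed genes) and RPL3L (-1.27, SE 0.49, limma adjusted p = 0.0426, and -3.23 scaled on expressed genes). RPL24 is among the genes that were high in the 5 libraries. Scaled on expressed genes, 0 members were higher without TFEB-Dox replicate 2 or 3, or TFEB-Veh replicate 1 or 2. The same held without EV-Dox replicate 2 or EV-Veh replicate 3. The lower count there ran from 2 to 5 with 1 library left out. The count of 49 was 5 without TFEB-Dox replicate 2, 6 without TFEB-Veh replicate 1, 8 without EV-Veh replicate 2, 19 without TFEB-Dox replicate 3, 23 without EV-Veh replicate 1, 25 without EV-Dox replicate 3, 28 without TFEB-Dox replicate 1, 31 without EV-Dox replicate 2 and 77 without EV-Dox replicate 1. RPS10 (-2.11, limma adjusted p = 0.00428, SE 0.52) and RPS25 (-0.85, limma adjusted p = 0.0361, SE 0.34) were lower scaled on expressed genes.

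The wider translation machinery was counted in TFEB-Dox against TFEB-Veh, scaled on expressed genes and beside the 34.4% higher and 33.2% lower of expressed genes given above. Of 34 initiation factors 7 rose and 7 fell, with a median of -0.05. Rises included EIF1 (1.85, SE 0.17, limma adjusted p = 1.8e-07), which acts in start codon choice, EIF4G2 (1.67) and EIF2B2 (1.13). Of 9 tested elongation and termination factors 1 rose, while EEF1A1 (0.04, limma adjusted p = 0.916, SE 0.32) and EEF2 (0.01, limma adjusted p = 0.977, SE 0.30), whose mRNAs are classic TOP mRNAs, were not called. Of 12 other TOP mRNAs 4 rose and 2 fell, among them the nucleolar chaperone NPM1 (0.92) and LGALS1 (0.75) upwards and HNRNPA1 (-0.70) downwards. The median over these 12 was -0.03, beside -0.26 for the ribosomal protein genes and -0.01 for expressed genes outside the family. On the deposited scale 7 initiation factors, 1 elongation factor and 2 other TOP mRNAs rose and 0 fell in each list. On that scale 31.5% of expressed genes were called higher and 3.51% lower.

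Regulators of TOP translation and dedicated chaperones moved in both directions when scaled on expressed genes. On the deposited scale 5 regulators and 2 chaperones rose and 0 fell, beside 31.5% higher and 3.51% lower of expressed genes. Of 22 genes of mTORC1 and TOP regulation 7 rose and 6 fell, with a median of -0.04. The mTORC1 activator RHEB rose by 1.84 (SE 0.15, limma adjusted p = 5.8e-08) and the TOP-binding repressor LARP1 by 1.13 (limma adjusted p = 1.3e-05, SE 0.15), and TIA1, a stress granule protein that binds TOP mRNAs, fell by 1.24 (-1.24, SE 0.13, limma adjusted p = 7.1e-07). Of 10 chaperones and assembly factors of ribosomal proteins 2 rose and 4 fell, with a median of -0.58. GRWD1, which escorts RPL3, fell by 1.47, HEATR3, which carries RPL5, fell by 1.44, and RRS1, which brings RPL5 and RPL11 into the assembling subunit, fell by 1.35. These were the largest called changes of the list. The 2 that rose on the deposited scale were RPF2 (1.92, SE 0.49, limma adjusted p = 0.00285) and AAMP (1.37, SE 0.47, limma adjusted p = 0.0288). RPF2 had 132 ± 19.2 RPM in TFEB-Dox and 72.1 ± 7.39 RPM in TFEB-Veh. Among ribosomal protein genes with other symbols GNB2L1, which encodes RACK1, stood at -0.18 (limma adjusted p = 0.496, SE 0.23) and was not called.

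Reads of ribosomal protein pseudogenes were summed because they can be exchanged with those of the members. They came to between 1.95% and 4.45% of member reads per library, the highest in EV-Dox replicate 3. The pseudogenes with the highest mean deposited values were RPS2P46 (2701) and RPL3P4 (1809). Of 78 tested pseudogenes 3 rose and 7 fell in TFEB-Dox against TFEB-Veh scaled on expressed genes, beside 14.4% and 20.7% of all tested genes, and 8 rose and 0 fell on the deposited scale, beside 17.4% and 4.66%. RPLP0P2 rose by 5.28 (SE 0.48, limma adjusted p = 1.89e-07), with 147 ± 15.5 RPM in TFEB-Dox, 4.74 ± 1.82 RPM in TFEB-Veh, 7.35 ± 5.87 RPM in EV-Dox and 2.04 ± 1.14 RPM in EV-Veh (SD, n = 3 each). This gene was chosen after its values were seen. The parent RPLP0 was lower in the same libraries, as given above.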

How the data were processed

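RNA sequencing of 12 HL60 libraries was read from 1 deposited table of normalized signal values per gene. The tools named in the submitters' processing notes are STAR 2.5.3a, an aligner, and HTSeq 0.6.1, a read counter. Their genome build, annotation and strand setting were not given in the sources used here. Overlapping and antisense genes are therefore uncertain. Within each library the deposited values were whole multiples of 1 step (100.0% at a tolerance of 0.01), from which whole reads were recovered; in EV-Veh replicate 2 and TFEB-Veh replicate 3 the step differed from 1 by less than 1.0%, so that rounding could give the same pattern.

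The 23128 genes whose mean reached 10 were tested with limma 3.58.1 (R 4.3.3) on log2(value + 1) (1 mean per group, variance trend, two-sided, Benjamini-Hochberg adjusted p under 0.05), on the deposited scale, with libraries scaled on the 7290 nuclear genes whose mean reached 200, and centred on the family median. Fold changes on this scale understate low genes. The p-values measure the spread between these samples. Alternatives were TMM factors, equal totals, other pseudocounts (10) and filters (50, none), a replicate block, leaving out every library once, and count models of the recovered reads (edgeR 4.0.16, DESeq2 1.42.0). Deviations of same-numbered libraries correlated at 0.208, 0.405 and 0.720 in EV-Dox and EV-Veh, and at 0.457, 0.626 and 0.486 in TFEB-Veh and EV-Veh. EV-Dox replicate 1 correlated more with EV-Veh replicate 2 (0.610) than with its own number. The fits were tested on simulated data, where centring on the median level was less steady than centring on the mean or the median deviation, and the last was added as an alternative. Principal components used the 71 members with a mean of at least 1000 that are no paralogs. Named genes were those called with the largest changes in each comparison, members of known role, parents of paralogs and the extremes of the mean; others were named after their values were seen, and some genes are not reported here. Members, lists and rules were chosen with earlier results of these data known.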

Additional observations from a re-analysis of the deposited data

Results flagged for a closer look

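The response to doxycycline differed between the TFEB and the empty-vector line for 49 members in the higher and 1 in the lower direction on the deposited scale (limma interaction term, adjusted p under 0.05). Of expressed genes 62.6% were called higher and 0.0686% lower, a share near that of the members. The higher count ranged from 5 to 77 with 1 library left out, and scaled on expressed genes the counts were 1 and 3, beside 31.1% and 29.9% of expressed genes.

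Relative to the family median, the response differed between the lines, always more negative in the TFEB line, for RPL3L (-3.44 on the log2 scale), RPS10 (-2.30), RPS25 (-0.99), RPL41 (-0.80) and RPL29 (-0.49), beside 50.9% of all tested genes and 27.9% of expressed genes called lower in the same fit. RPS25 departed from the family in both lines and in opposite directions, by -0.52 in TFEB-Dox against TFEB-Veh and by 0.47 in EV-Dox against EV-Veh. Centred on the median deviation instead, RPL3L, RPS10 and RPS25 were still called for the difference between the lines (limma adjusted p = 0.0161, 0.0151 and 0.0167), RPL41 (-0.65, limma adjusted p = 0.068) and RPL29 (-0.34, limma adjusted p = 0.0985) were not, and RPS25 was called in neither line alone (-0.46 in the TFEB and 0.38 in the empty-vector line).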

How the results depend on the processing

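Every same-numbered pair of EV-Dox with EV-Veh and of TFEB-Veh with EV-Veh correlated above 0.1. Over all groups same-numbered correlations ran from -0.224 to 0.720, above 0.1 in 14 of 18 pairs, and those of different numbers from -0.705 to 0.610. TFEB-Dox replicate 2 and EV-Dox replicate 1 did not correlate best with their own numbers. EV-Dox replicate 1 had 0.208 with EV-Veh replicate 1 and 0.610 with EV-Veh replicate 2. A pairing by number is therefore uncertain. With a replicate block 7 members departed from the family upwards and 6 downwards in TFEB-Dox against TFEB-Veh, 1 was called higher in EV-Dox against EV-Veh on the deposited scale, and scaled on expressed genes the block gave 4 higher and 15 lower (TFEB-Dox against TFEB-Veh), 15 and 5 (against EV-Dox), 4 and 6 (against EV-Veh), 1 and 15 (EV-Dox against EV-Veh) and 5 and 5 (interaction). Counts below give members higher, then lower, and the cause of the differences was not tested. Shares of all genes called were counted only for the deposited scale, expressed-gene scaling, equal totals and the family centring. Counts with the block, the set term, edgeR, DESeq2 and other settings, here and above, have no such share beside them. They cannot be read as particular to the members.
In TFEB-Dox against TFEB-Veh (2 and 0) equal totals gave 1 and 12, expressed-gene scaling 1 and 11, DESeq2 4 higher, expressed-gene scaling with the library-set term 17 lower, and the median turned to -0.37, -0.26 and -0.21 under equal totals, expressed-gene scaling (also with block) and with that term; leaving out 1 library gave 0 to 4 higher and 0 to 1 lower. The set term gave 8 downward departures and centring on the median deviation 0, with a median departure of 0.015; leaving out 1 library gave 0 to 5 in either direction, and a median departure between -0.10 and, without TFEB-Veh replicate 3, 0.035.
Against EV-Dox (46 and 1) no filter gave 7 and 0, a mean of at least 50 gave 0 lower, equal totals 6 and 5, expressed-gene scaling 10 and 4, with the set term 21 and 7, edgeR and DESeq2 0 lower, and single libraries left out 5 to 74 and 0 to 1. Against EV-Veh (0 and 0) TMM gave 1 higher, equal totals 1 and 11, expressed-gene scaling 2 and 4, with the set term 4 and 6, edgeR 3 and DESeq2 2 higher, and single libraries left out 0 to 1 and 0 to 1. Its median turned to 0.026 (TMM), 0.10 (edgeR), 0.050 (set term), 0.01 without TFEB-Dox replicate 1 and 0.24 without EV-Veh replicate 2, and was -0.35 without EV-Veh replicate 3.
In EV-Dox against EV-Veh (0 and 45) a mean of at least 50 gave 73 lower, no filter 7, equal totals 1 and 10, expressed-gene scaling 1 and 4, with the set term 1 and 24, edgeR 1 and 17, DESeq2 70 lower, and single libraries left out 0 to 1 and 1 to 81. In TFEB-Veh against EV-Veh 0 to 0 were called without any 1 library, and the median of -0.57 turned to 0.087 scaled on expressed genes, with or without set term or block. For the interaction (49 and 1) no filter gave 6 and 0, a mean of at least 50 gave 0 lower, equal totals 1 and 2, expressed-gene scaling 1 and 3, with the set term 8 and 6, edgeR 21 higher, and single libraries left out 5 to 77 and 0 to 1.
Shares of nuclear reads without 1 library differed by -4.41 to -3.53 points (TFEB-Dox against TFEB-Veh), -2.39 to -0.589 (against EV-Dox), -3.75 to -2.94 (against EV-Veh), -2.64 to -0.846 (EV-Dox against EV-Veh) and 0.0718 to 1.17 (TFEB-Veh against EV-Veh); the second turned to 0.102 as a share of all reads. Levels of RPS10, RPL36A, RPL17, RPL3L, RPL26 and RPL26L1 rest on few reads and are limited by depth.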
